A study of Mus musculus with 10 samples.

Results

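The MHC class II antigen presentation genes were examined in the jejunum of mice at postnatal day 5. They were the rows of all 10 count files whose symbol matched a fixed list of 10 genes, and all 10 were found among 24062 gene symbols. The study asked whether IL-23 made in the skin, and the cytokines that follow it, alter gene expression in the neonatal intestine. WT mice were wild-type C57BL/6 mice (5 libraries). KSR23 mice, also C57BL/6 and labelled KSR23+ (5 libraries), carried an IL-23 cassette at ROSA26 that stays silent until cre removes a floxed STOP, and a cre recombinase under the K14 (keratin 14) promoter, which is active in keratinocytes and other stratified epithelia. The cassette was thus aimed at the skin and not at the jejunum. The labels name no deletion, treatment or pooling of animals in either group.

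MHC class II molecules display peptides from ingested or extracellular material to CD4+ T cells. An alpha and a beta chain (H2-Aa with H2-Ab1 for the I-A molecule; the C57BL/6 strain lacks a functional I-E alpha chain, so H2-Eb1 has no partner there) are assembled around the invariant chain Cd74, H2-DM exchanges the remnant of that chain for peptide in endosomes, and H2-O restrains H2-DM. Transcription of these genes depends on the coactivator Ciita, which docks on RFX, CREB and NF-Y factors at the promoters and is induced by interferon-γ. In the gut, dendritic cells, macrophages, B cells, group 3 innate lymphoid cells (ILC3) and, after interferon-γ, the epithelium can carry class II.

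The promoters of these genes are known for a conserved X box and Y box at a fixed distance, so the corresponding stretch is shown for each member in which it was found. Of the 10 members, 7 were looked up in a RefSeq promoter table of build GRCm38.p6 (250 bases before to 50 after the start). H2-Ab1, Cd74 and Ciita are not shown. AAC followed, after 24 to 27 bases, by GATTGG (the reverse of a CCAAT box) on the strand of the gene occurred in 6 of the 7, and not in H2-DMa. The pair was chosen after these sequences were seen. On either strand it occurred in 0.913% of 32851 promoters of the same length, and GATTGG alone in 16.1%. In the stretches below, written 5′ to 3′ on the strand of the gene, the capitals mark AAC and GATTGG.
H2-Aa: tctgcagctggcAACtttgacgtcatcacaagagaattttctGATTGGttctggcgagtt
H2-Eb1: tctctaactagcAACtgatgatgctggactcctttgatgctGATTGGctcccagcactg
H2-DMb1: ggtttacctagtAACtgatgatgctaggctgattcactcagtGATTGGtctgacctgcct
H2-DMb2: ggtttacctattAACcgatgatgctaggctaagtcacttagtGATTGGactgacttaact
H2-Oa: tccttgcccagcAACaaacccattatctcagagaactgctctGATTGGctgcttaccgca
H2-Ob: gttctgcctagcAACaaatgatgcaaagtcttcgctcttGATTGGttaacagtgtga
They lie at chr17:34287855-34287914 (H2-Aa, minus strand), chr17:34305766-34305824 (H2-Eb1), chr17:34153087-34153146 (H2-DMb1), chr17:34145116-34145175 (H2-DMb2), chr17:34092293-34092352 (H2-Oa) and chr17:34238808-34238864 (H2-Ob), all but H2-Aa on the plus strand. GATTGG began 44 bases (H2-Oa) to 91 bases (H2-DMb2) before the annotated start. The match is a description of letters, and binding was not measured.

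The libraries held 25.5 to 32.03 M counts in WT and 31.2 to 60.9 M in KSR23 (M, 1e6), so that 3 counts corresponded to 0.0492 to 0.118 CPM (counts per 1e6 counts of the library). Il12b, the p40 subunit of IL-23, had 0 to 5 counts in WT and 9 to 40 in KSR23, and Il22, the cytokine induced by IL-23, had 0 to 1 and 137 to 329. Il23a, the p19 subunit, had 1 to 14 and 8 to 34 counts and was not called (adjusted p = 0.27, edgeR). The cells of a jejunum were present in all libraries, with summed levels of 8 epithelial markers of 9580 to 16523 CPM in WT and 6732 to 12035 in KSR23. Replicates 4 and 5 of both groups were seldom at the edge of their group. They were the highest or lowest library of the group at 10.2% to 15.7% of genes, against 48.9% to 66.4% for replicates 1 to 3 and 40% for exchangeable libraries. The study calls the libraries of a group biological replicates, while the labels name no animals. If replicates 4 and 5 were not separate animals, n = 5 would overstate the replication and the p-values would be too small. Results are for all 10 libraries, and it is also said which calls replicates 1 to 3 alone gave. The libraries also differed along a shared axis that held 71.7% of the variance within groups. It followed the GC content of the first 500 bases of transcripts (Spearman's rho = 0.476 across 10405 genes, which are not independent). WT replicates 1 and 5 and KSR23 replicates 3 and 5 had the lowest levels of transcripts with GC-rich 5′ ends. The slope of each library on that GC content, measured on genes outside all lists used here, is called its 5′ GC slope.

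Class II transcripts were lower in KSR23 jejunum for the I-A alpha chain and for H2-Eb1. H2-Aa was 2.29-fold lower and H2-Eb1 2.09-fold lower, and no KSR23 library reached a WT library for either gene. Of the 10 genes, 9 had a negative log2 fold change of KSR23 over WT. By edgeR's likelihood ratio test at an adjusted p under 0.05, 2 of 10 were called lower, where 8.76% of all genes tested were, and 0 of 10 were called higher, where 9.73% were (18.5% in either direction). The quasi-likelihood F test of edgeR also called 2 lower, where it called 6.91% of all genes lower. CPM did not overlap between the groups for 3 of 10 (H2-Aa, H2-Eb1 and H2-DMb1, all lower), as for 6.99% of all genes tested. The median log2 fold change of the 10 genes was −0.52, beside 0.03 over all 17632 genes tested. With only replicates 1 to 3, all 10 genes had a negative log2 fold change and none was called, where 3.36% of all genes tested were. In bulk tissue, fewer cells that carry these transcripts and less transcript per cell cannot be told apart.

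**Figure D1:**
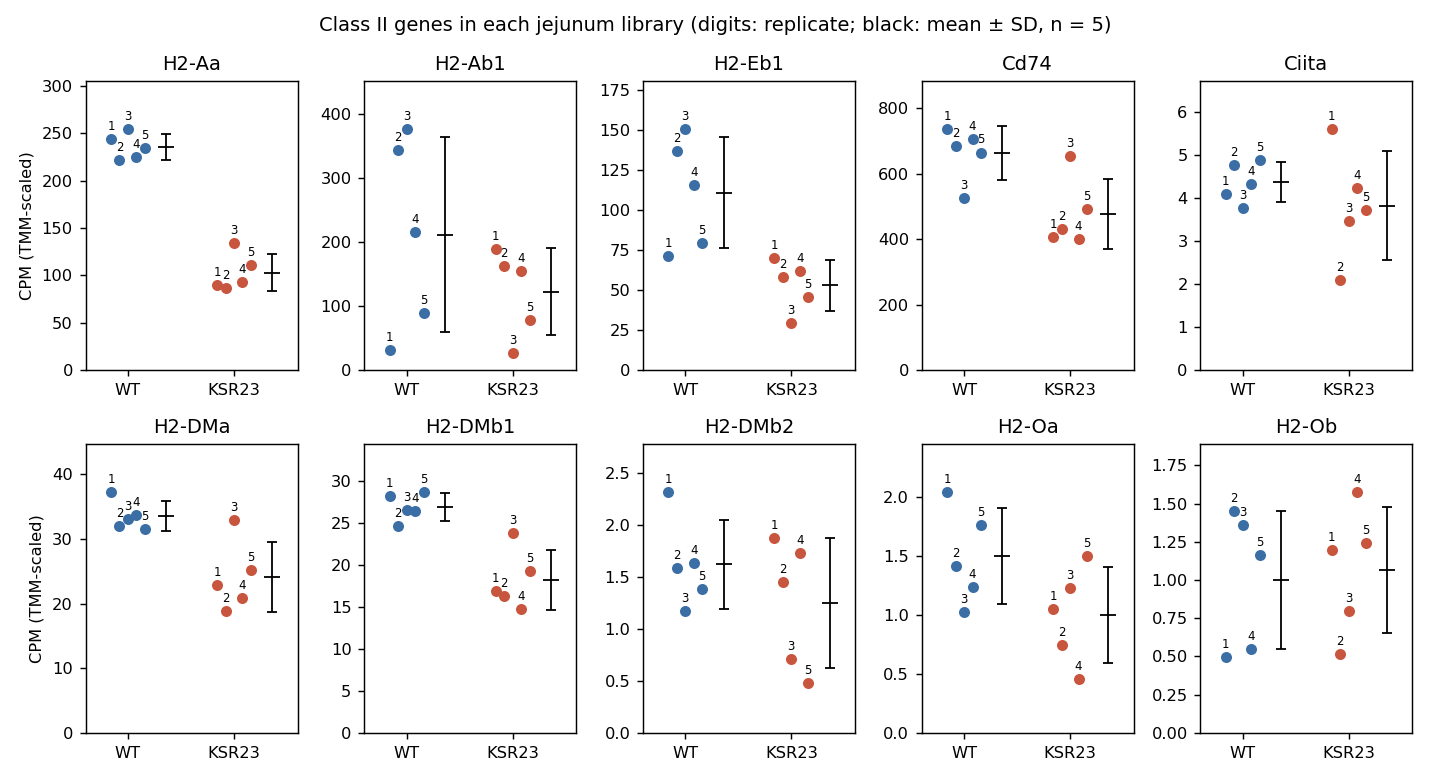
CPM (y axis, from 0) of the 10 class II genes in each of the 5 WT and 5 KSR23 libraries, with the replicate number beside each point and the mean ± SD in black. H2-Aa and H2-Eb1 show no overlap between the groups, whereas H2-Ab1 runs from 31.0 to 377 CPM in WT alone.

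The chains of the presenting molecule were examined first. H2-Aa, the alpha chain of I-A (chr17:34282744-34287823, build mm10, minus strand), stood at 244, 222, 254, 225 and 234 CPM in WT replicates 1 to 5. In KSR23 replicates 1 to 5 it stood at 89.7, 86.4, 134, 93.4 and 111 CPM. The WT libraries lay close together (236 ± 13.5 CPM, SD, n = 5), all above the KSR23 libraries (103 ± 19.9 CPM, SD, n = 5), of which replicate 3 was the highest. The log2 fold change was −1.20 (SE 0.24; likelihood ratio test, adjusted p = 1.74e-05; quasi-likelihood F test, adjusted p = 0.00119). In replicates 1 to 3 alone it was −1.18, with an adjusted p of 0.187 by the likelihood ratio test of edgeR.

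H2-Eb1, the beta chain of the I-E molecule (chr17:34305867-34316674), measured 71.3, 136, 150, 116 and 79.5 CPM in WT replicates 1 to 5. The KSR23 libraries gave 69.9, 58.2, 29.3, 61.8 and 45.6 CPM. The highest KSR23 library (replicate 1) lay just under the lowest WT library (replicate 1). The log2 fold change was −1.06 (SE 0.33; likelihood ratio test, adjusted p = 0.0109; quasi-likelihood F test, adjusted p = 0.0269). In replicates 1 to 3 it was −1.15 (adjusted p = 0.357, edgeR). Without WT replicate 2 or WT replicate 4 it was no longer called (adjusted p = 0.0526 and 0.0511, likelihood ratio test of edgeR). Nor was it called with the replicate number as a block (adjusted p = 0.0712, edgeR) or once Y-linked counts entered the fit as a term (adjusted p = 0.147, edgeR). The 4 Y-linked genes summed to 6347, 4361, 492, 5831 and 4471 counts in WT replicates 1 to 5. In KSR23 replicates 1 to 5 they summed to 9035, 9, 1, 4330 and 1 counts. Transcripts of these genes come from males, so sex was not balanced between the groups. The labels used here do not give sex, and its part in the group differences was not tested beyond that fit.

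H2-Ab1, the beta chain that pairs with H2-Aa (chr17:34257689-34269419), showed a different picture from its partner. It measured 31.0, 345, 377, 217 and 89.3 CPM in WT, and 190, 164, 26.6, 154 and 78.0 CPM in KSR23 replicates 1 to 5. The groups overlapped, and within each group the lowest library lay far under the highest (12.2-fold in WT, 7.16-fold in KSR23). The log2 fold change was −0.79 (SE 0.62, 95% interval −2.002 to 0.42; adjusted p = 0.421, likelihood ratio test of edgeR), so that neither no change nor a change like that of H2-Aa lay outside the interval. The within-group SD of log2 CPM was 1.52 in WT and 1.18 in KSR23 for H2-Ab1, against 0.08 and 0.26 for H2-Aa.

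The spread of H2-Ab1 moved with the 5′ GC slope of the libraries. Deviations of log2 CPM from the group mean followed the slope with Pearson's r of 0.92 for H2-Ab1 and 0.96 for H2-Eb1 over the 10 libraries, and with r of −0.64 for H2-Aa and −0.83 for Cd74. The first 500 bases of the longest transcript had a GC content of 61.0% for H2-Ab1, 55.0% for H2-Eb1, 51.4% for H2-Aa and 57.2% for Cd74. H2-DMa (55.4%), H2-DMb1 (54.2%) and H2-Oa (54.6%) had r of −0.63, −0.78 and −0.65. For H2-DMb2 (52.6%), H2-Ob (53.8%) and Ciita (55.2%) r was 0.42, 0.54 and 0.34. The GC content of a member thus did not give the order of its r among the 10 genes. The r values describe 10 libraries that share the axis described above, and the part of that axis in the group differences was not tested beyond the fit given next.

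**Figure D2:**
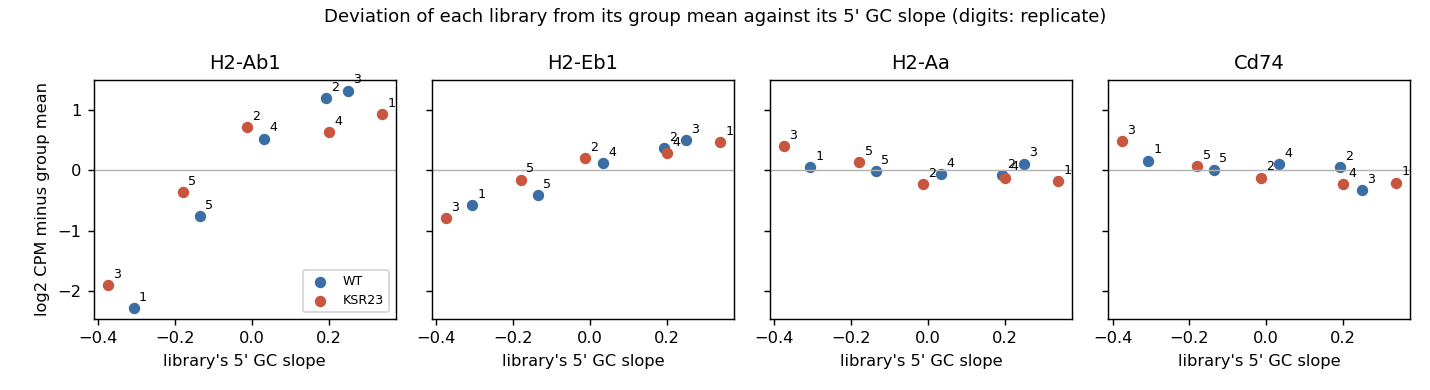
Log2 CPM minus the group mean (y axis) for 4 class II genes against the 5′ GC slope of each library (x axis, log2 units per 10 percentage points of GC), with WT in blue, KSR23 in red and replicate numbers beside the points. H2-Ab1 and H2-Eb1 rise with the slope in both groups (r = 0.92 and 0.96), whereas H2-Aa and Cd74 do not (r = −0.64 and −0.83).

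With the 5′ GC slope as a covariate, an alternative chosen after the data were seen, 5 of 10 class II genes were called lower (H2-Aa, H2-Eb1, H2-DMa, H2-DMb1 and Cd74), where that fit called 17.7% of all genes lower. The log2 fold changes of H2-Aa and H2-Eb1 were −1.22 (SE 0.16) and −1.04 (SE 0.16) in that fit. H2-Ab1 was at −0.49 (SE 0.31; adjusted p = 0.224, likelihood ratio test of edgeR) and was still not called.

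**Figure D3:**
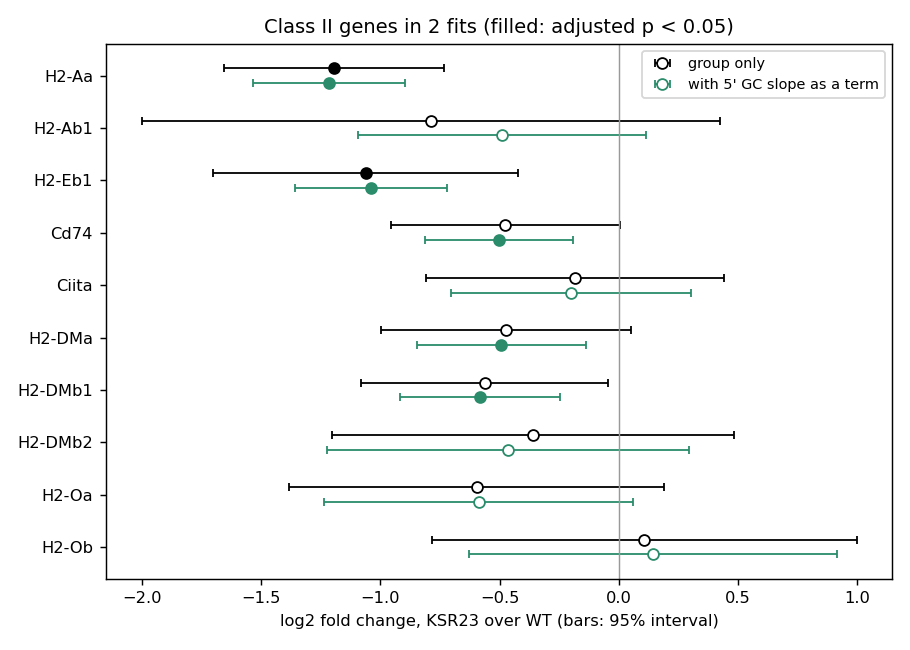
Log2 fold change of KSR23 over WT (x axis; bars, 95% interval) for the 10 class II genes in the fit with the group only (black) and with the 5′ GC slope added (green), filled where the adjusted p was under 0.05. H2-Aa and H2-Eb1 are filled in both fits, and H2-DMa, H2-DMb1 and Cd74 in the second only.

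Cd74, the invariant chain that chaperones new class II molecules and blocks their groove, was the most abundant of the 10 genes per length in both groups. It measured 736, 685, 526, 708 and 665 CPM in WT replicates 1 to 5. The KSR23 libraries gave 407, 431, 655, 400 and 493 CPM. KSR23 replicate 3 lay among the WT libraries, and WT replicate 3 was the lowest of its group. The log2 fold change was −0.48 (SE 0.24; adjusted p = 0.172, likelihood ratio test of edgeR). Without KSR23 replicate 3 it was −0.62 and was called (adjusted p = 0.0393, edgeR). In the other fits that left out 1 library it was not called (adjusted p = 0.138 to 0.379, edgeR).

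The subunits of H2-DM, the peptide editor, had lower means in KSR23 but were called by neither edgeR test in the fit with the group only. H2-DMa (chr17:34119541-34139101) measured 37.3, 31.96, 33.1, 33.7 and 31.5 CPM in WT, and 22.8, 18.9, 32.9, 20.9 and 25.2 CPM in KSR23. H2-DMb1 (chr17:34153072-34160230) measured 28.3, 24.6, 26.5, 26.4 and 28.7 CPM in WT, and 16.9, 16.3, 23.8, 14.7 and 19.3 CPM in KSR23. For both genes KSR23 replicate 3 was the highest of its group, and it reached the WT range for H2-DMa only. The log2 fold changes were −0.47 (SE 0.27; adjusted p = 0.224) for H2-DMa and −0.56 (SE 0.26; adjusted p = 0.126) for H2-DMb1, by the likelihood ratio test of edgeR. H2-DMb1 was called without KSR23 replicate 3 (adjusted p = 0.0399), in DESeq2 (adjusted p = 0.0217) and with library totals alone as scaling (adjusted p = 0.0434, edgeR). The other fits that left out 1 library did not call it (up to adjusted p = 0.324, edgeR). The second beta chain gene H2-DMb2 (chr17:34143307-34151555) had 32 to 75 counts in WT and 17 to 132 in KSR23, and its log2 fold change (−0.36, SE 0.43; adjusted p = 0.624, edgeR) turned positive once Y-linked counts entered the fit (0.27). H2-DMb1 and H2-DMb2 share 15.8% and 16.2% of their 75-base stretches with another gene, mainly each other, so reads could be lost or split between them. Exons of H2-DMa overlap Brd2 on the opposite strand by 360 bases.

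H2-O, the inhibitor of H2-DM that is typical of B cells, was near the lower end of what was measured. H2-Oa (chr17:34092340-34095234) had 28 to 66 counts in WT and 23 to 74 in KSR23, which gave −0.60 on the log2 fold change scale (SE 0.40; adjusted p = 0.329, edgeR). It shares 11.8% of its 75-base stretches with BC051537, an overlapping gene on the opposite strand. H2-Ob (chr17:34238903-34254414) had 16 to 41 counts in WT and 16 to 89 in KSR23, and its log2 fold change of 0.11 (SE 0.45; adjusted p = 0.908, edgeR) turned to −0.0295 with upper-quartile scaling. Both groups spanned about the same levels, 0.50 to 1.45 CPM in WT and 0.52 to 1.58 CPM in KSR23.

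Ciita, the coactivator required for class II transcription (chr16:10480059-10528418), was not called. It measured 4.09, 4.77, 3.78, 4.32 and 4.88 CPM in WT replicates 1 to 5. KSR23 replicates 1 to 5 gave 5.604, 2.096, 3.46, 4.23 and 3.73 CPM. KSR23 replicates 2, 3 and 5 lay under all WT libraries, replicate 4 among them and replicate 1 above. The log2 fold change was −0.19 (SE 0.32, 95% interval −0.81 to 0.44; adjusted p = 0.754, likelihood ratio test of edgeR), and it was 0.0187 without KSR23 replicate 2.

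Levels per length (RPKM, counts per kilobase of the union of exons and per 1e6 counts) put Cd74 first in WT at 395 ± 48.7 (SD, n = 5). H2-Ab1 (82.5 ± 59.3), H2-Aa (62.1 ± 3.55) and H2-Eb1 (56.9 ± 17.8) followed, and these 3 did not differ beyond their spread. H2-DMb1 (16.01 ± 0.98) and H2-DMa (9.72 ± 0.66) came next and did not overlap. H2-Oa (1.06 ± 0.29) and H2-DMb2 (0.93 ± 0.25) lay within each other's spread, and Ciita (0.46 ± 0.05) and H2-Ob (0.19 ± 0.08) were lowest. In KSR23 Cd74 was at 284 ± 63.0, H2-Ab1 at 47.7 ± 26.5, H2-Eb1 at 27.2 ± 8.17 and H2-Aa at 27.1 ± 5.23 (SD, n = 5). With the longest annotated transcript as the length, H2-Aa was at 209 ± 12.0 in WT, above H2-Ab1 at 175 ± 126 and H2-Eb1 at 66.3 ± 20.7, and H2-DMb1 (17.5 to 20.5) and H2-DMa (15.7 to 18.6) overlapped, so the order of the chains rests on the length used.

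Ratios of counts within a library need no scaling between libraries. Of 10 pairs tested by two-sided exact permutation over 252 splits, none passed adjustment over the 10, which 1 separated pair by itself could not pass (smallest adjusted p 0.0794). H2-Ab1 to H2-K1, a classical class I heavy chain, came nearest. Its log2 ratio was −2.36, −1.79, −1.81, −1.79 and −2.14 in WT replicates 1 to 5. In KSR23 replicates 1 to 5 it was −2.87, −3.59, −2.92, −3.15 and −3.57. All KSR23 libraries lay under all WT libraries, with a difference of −1.24 (exact permutation p = 0.00794, the smallest possible; 0.0794 after adjustment). The log2 fold change was negative for H2-Ab1 and positive for H2-K1, and neither gene was called. The ratio combines both and does not show H2-Ab1 alone to be lower. H2-Ab1 to H2-Aa differed by 0.62 and the groups overlapped (−0.64 ± 1.54 in WT, −0.02 ± 1.44 in KSR23, SD, n = 5; exact permutation p = 0.508). KSR23 replicates 1, 2 and 4 (1.08, 0.92 and 0.72) lay above all WT libraries, and KSR23 replicates 3 and 5 (−2.34 and −0.51) within their range. The difference was 0.0363 without WT replicate 1 and 1.2 without KSR23 replicate 3.

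A further 9 pairs were chosen after the values were seen and are given as descriptions with no test. The log2 ratio of H2-Aa to Cd74 was −1.49 ± 0.25 in WT and −2.21 ± 0.09 in KSR23, and that of H2-Aa to H2-DMa was 2.82 ± 0.10 and 2.099 ± 0.09 (SD, n = 5). Neither overlapped between the groups. H2-Aa to B2m, the class I light chain, went from −4.16 ± 0.13 to −4.89 ± 0.27, also without overlap. H2-Aa to Ptprc (CD45, carried by all leukocytes) was 3.56 ± 0.35 in WT and 2.43 ± 0.61 in KSR23, where KSR23 replicate 2 (3.48) lay within the WT range.

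**Figure D4:**
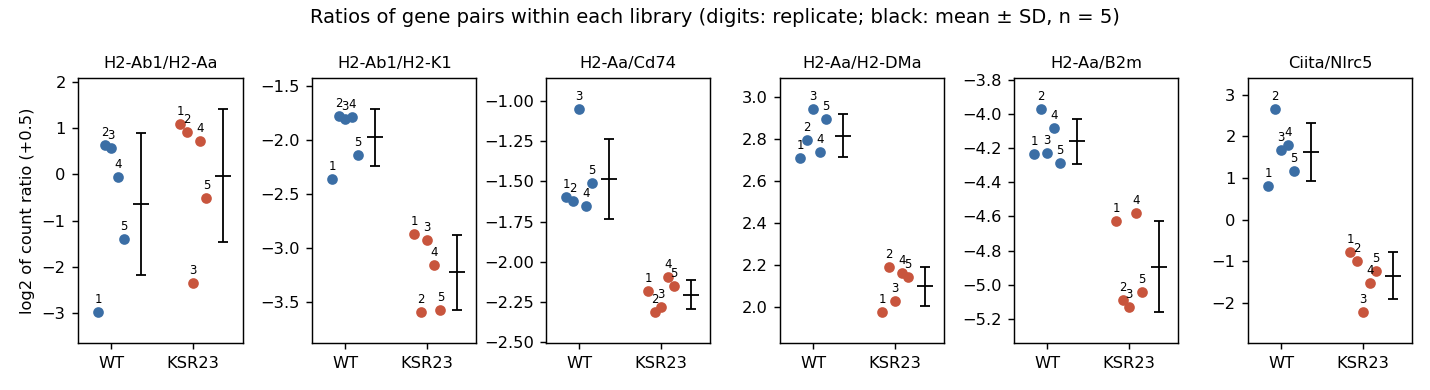
Log2 ratio of counts within each library (y axis, 0.5 added to each count) for 6 gene pairs in WT and KSR23, with replicate numbers and the mean ± SD in black. H2-Ab1 to H2-Aa overlaps in part, and H2-Ab1 to H2-K1, H2-Aa to Cd74, H2-Aa to H2-DMa, H2-Aa to B2m and Ciita to Nlrc5 do not overlap.

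The counts of called genes in the lists that follow stand beside 9.73% of all genes tested called higher and 8.76% called lower. Of 10 genes on the route from interferon-γ to Ciita, 4 were called higher and 0 lower (median log2 fold change 0.64, beside 0.03 over all genes). Ifng, the gene for interferon-γ itself, had 0 to 8 counts in WT and 12 to 42 in KSR23 (log2 fold change 2.86, SE 0.75; adjusted p = 0.00167, edgeR). WT replicate 5 held the 8 counts, and without it the log2 fold change of Ifng was 4.13. Ifngr1, its receptor chain, rose by 1.17 (adjusted p = 0.00891, edgeR). Prdm1, which encodes Blimp-1, a repressor of Ciita in plasma cells, rose by 1.13 (adjusted p = 0.000298, edgeR). Irf1, which binds the interferon-inducible Ciita promoter, was at 143 ± 51.0 CPM in WT and 222 ± 70.9 in KSR23 (SD, n = 5; log2 fold change 0.64, adjusted p = 0.194, edgeR). Of the 7 promoter factors, Creb1 was called higher (0.85; adjusted p = 0.0145, edgeR) and 0 lower, with a list median of −0.28. Rfx5, a subunit of RFX, was at 4.91 ± 2.27 CPM in WT and 3.25 ± 2.43 in KSR23 (SD, n = 5).

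Endosomal processing genes were called lower for 2 of 9 and higher for 0 (list median −0.28). Ctsl, a protease that can cut the invariant chain, fell by 2.46 on the log2 scale (adjusted p = 5.08e-06, edgeR). Its part in class II processing in the jejunum was not tested. It measured 9323, 2462, 8657, 5329 and 9257 CPM in WT, then 2111, 434, 1448, 1474 and 918 CPM in KSR23. The groups did not overlap. Ifi30, the thiol reductase GILT, fell by 1.05 (adjusted p = 0.0035, edgeR). Ctss, the protease that removes the invariant chain in dendritic cells and B cells, was at 757 ± 102 CPM in WT and 552 ± 198 in KSR23 (SD, n = 5; log2 fold change −0.46, adjusted p = 0.292, edgeR). Of the 2 ligases that turn class II over at the surface, March8 rose by 0.67 (adjusted p = 0.0472, edgeR) and March1 was at 0.20 (adjusted p = 0.863, edgeR).

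Of 11 genes of T cell recognition and costimulation, 2 were called higher and 1 lower (list median 0.13). Ctla4, an inhibitory receptor of T cells, had 1 to 5 counts in WT and 21 to 60 in KSR23 (log2 fold change 3.61, SE 0.63; adjusted p = 1.76e-07, edgeR). Cd274, which encodes PD-L1, rose by 0.997, and Pdcd1lg2, which encodes PD-L2, fell by 1.58 (adjusted p = 0.0221 and 0.00153, edgeR). Cd4, the coreceptor for class II, was at 4.05 ± 1.31 CPM in WT and 3.63 ± 1.36 in KSR23 (SD, n = 5; adjusted p = 0.82, edgeR).

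Class I molecules present peptides made inside the cell. In that list of 14 genes, Nlrc5 and Tap1 were called higher and 0 lower (list median 0.53). Nlrc5, the class I counterpart of Ciita, measured 2.32, 0.743, 1.17, 1.24 and 2.18 CPM in WT replicates 1 to 5. KSR23 replicates 1 to 5 gave 9.6003, 4.19, 16.3, 12.1 and 8.75 CPM. All KSR23 libraries lay above all WT libraries, and the rise was 6.63-fold (log2 fold change 2.73, SE 0.43; adjusted p = 8.99e-08, edgeR). The log2 ratio of Ciita to Nlrc5 was 1.62 ± 0.70 in WT and −1.35 ± 0.56 in KSR23 (SD, n = 5). Tap1, a subunit of the peptide transporter, rose by 1.47 (adjusted p = 0.0457; 0.0912 by the quasi-likelihood F test of edgeR). H2-K1 and H2-D1 had log2 fold changes of 0.62 and 0.66 and were not called (adjusted p = 0.516 and 0.515, edgeR). Both had first 500 bases richer in GC than H2-Ab1 (63.8% and 62.2%), and H2-K1 ran from 159 to 1323 CPM within WT.

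Among the called pathway genes, Ifng, Ctsl, Ctla4 and Nlrc5 were also called in replicates 1 to 3 alone (adjusted p = 0.00504, 0.047, 0.0279 and 0.00708, edgeR). Calls near the threshold were lost when 1 library was left out, while their folds kept the same sign. March8 was lost in 8 of the 10 fits that left out 1 library (kept without KSR23 replicate 2 or 3) and Tap1 in 8 (kept without WT replicate 2 or KSR23 replicate 3). Their highest adjusted p values were 0.12 and 0.132 (edgeR), and their log2 fold changes ran from 0.63 to 0.77 and from 1.27 to 1.80. Cd274 was lost in 5 (without WT replicate 3, 4 or 5 or KSR23 replicate 3 or 5; up to adjusted p = 0.071, edgeR) and Creb1 without WT replicate 3 (adjusted p = 0.05004, edgeR). Upper-quartile scaling also lost March8, Cd274 and Creb1 (adjusted p = 0.238, 0.113 and 0.126, edgeR). With Y-linked counts as a term March8, Cd274, Creb1 and Ifngr1 were not called (adjusted p = 0.051, 0.224, 0.122 and 0.106, edgeR).

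The class II genes on chromosome 17 are interleaved with class I processing genes and others. Of 11 neighbours, 1 (Tap1) was called higher and 0 lower, with a list median of 0.18. Psmb9, a proteasome subunit gene beside Tap1, was at −0.39 and Psmb8 at 0.29 on the log2 fold change scale, neither called (adjusted p = 0.30 and 0.725, edgeR). Brd2, which overlaps H2-DMa, was at 0.33 and Btnl2, beyond H2-Eb1 and H2-Eb2, at 0.18.

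**Figure D5:**
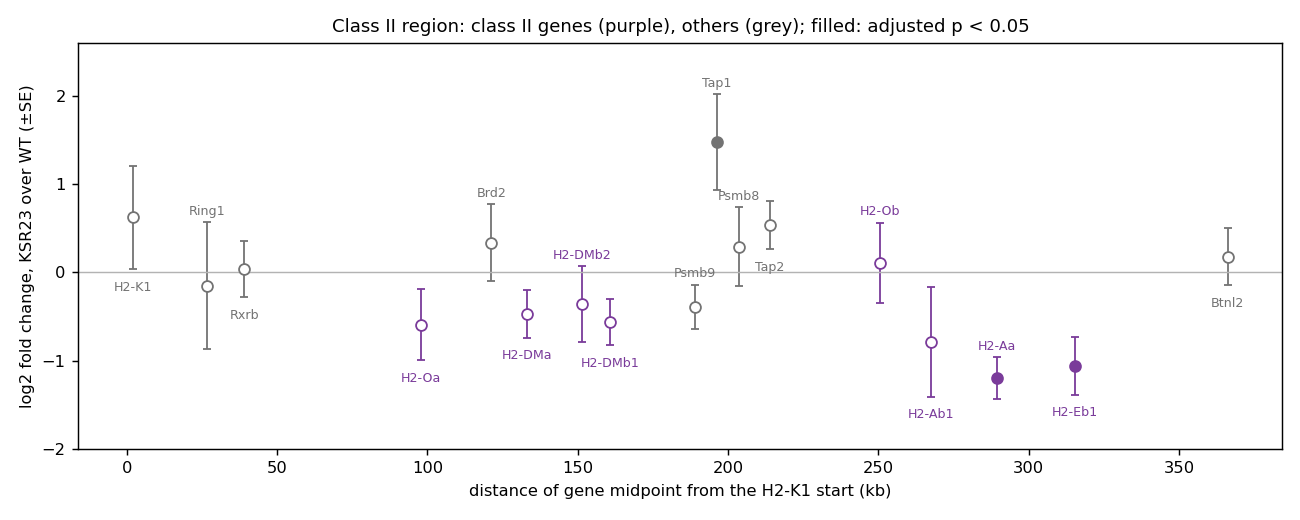
Log2 fold change of KSR23 over WT ± SE (y axis) for class II genes (purple) and neighbours (grey) against the distance of the gene midpoint from the start of H2-K1 (x axis, kb), filled where the adjusted p was under 0.05; 2 neighbours with SE over 1 (H2-Eb2 and Col11a2) are left out. H2-Aa (−1.20) and H2-Eb1 (−1.06) are the filled class II genes, and Tap1 (1.47) the filled neighbour.

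Markers of cells that carry class II were read beside these values. Of the 20 marker calls given below, 12 were also made by the quasi-likelihood F test of edgeR, which did not call C1qc, Ccr7, Cd209a, Cd8a, Cd5, Elane, Cdh1 or Lct. In replicates 1 to 3 alone Krt20 was the only marker called. Ptprc was at 20.3 ± 3.77 CPM in WT and 20.8 ± 9.002 in KSR23 (SD, n = 5; log2 fold change 0.03, adjusted p = 0.965, edgeR). Of 10 macrophage markers, 3 were called lower (C1qb, C1qc and Cd68 by 0.69, 0.996 and 1.06 on the log2 scale) and 1 higher (Cd14, 1.81). The median log2 fold change of the list was −0.63, beside −0.52 for the class II genes, and 8 of 10 were negative. With the 5′ GC slope as a covariate 7 of 10 were called lower and 2 higher, where that fit called 17.7% of all genes lower. The summed level of that list was 841 to 1011 CPM in WT and 647 to 789 in KSR23, without overlap, so it moved in the direction of H2-Aa. The log2 ratio of H2-Aa to macrophage genes, among the pairs chosen after the values were seen, depended on the gene. To the complement genes C1qa and C1qb it was 2.19 ± 0.31 and 0.91 ± 0.10 in WT and 1.41 ± 0.15 and 0.41 ± 0.12 in KSR23, without overlap. To C1qc and Cd68 it was 1.52 ± 0.65 and 2.74 ± 0.30 in WT and 1.27 ± 0.80 and 2.58 ± 0.08 in KSR23 (SD, n = 5), with overlap. Of 9 dendritic cell markers, Ccr7 and Itgae were called higher and Cd209a lower, and the summed level was 13.05 to 15.5 CPM in WT and 13.6 to 18.2 in KSR23. Itgax (CD11c) was at 4.81 ± 0.88 and 4.51 ± 1.32 CPM (SD, n = 5). The part of macrophage or dendritic cell number in the class II values was not tested.

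Of 9 B cell markers, 8 could be tested, 3 were called higher, Blk and Fcer2a among them, and Pax5 was at 0 in all libraries. The summed level was 7.89 to 10.2 CPM in WT and 7.22 to 15.6 in KSR23. Fcer2a had 64 and 99 counts in KSR23 replicates 1 and 4, against 1 to 4 in the other KSR23 libraries and 0 to 3 in WT. In those 2 libraries Ciita was at 5.604 and 4.23 CPM and H2-Ob at 1.19 and 1.58 CPM, where WT libraries reached 4.88 and 1.45 CPM. H2-Oa was at 1.05 and 0.46 CPM there, the latter the lowest of the 10 libraries, and KSR23 replicate 5, with 4 Fcer2a counts, had 1.24 CPM of H2-Ob. The part of B cells in these values was not tested.

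Of 8 ILC3 markers, Ccr6 was called higher and 0 lower, with summed levels of 120 to 173 CPM in WT and 105 to 176 in KSR23. Of 5 T cell markers in the files (of 6 listed), Cd3g and Cd8a were called lower and Cd5 higher, with sums of 6.91 to 9.69 and 4.60 to 7.21 CPM. Of 6 neutrophil markers, 1 was called higher, Elane, which was at 0 in all WT libraries and had at most 7 counts in KSR23, so no fold is given. Of 4 endothelial markers, Cdh5 was called lower. Of 8 epithelial markers, Cdh1 and Krt20 were called higher and Fabp2 and Lct lower. The part of the epithelium in the class II values was not tested.

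Genes most like H2-Ab1 were sought among 12879 genes with a mean of at least 1 CPM. Likeness was Pearson's r of log2 CPM deviations from the group mean over the 10 libraries. The 8 highest outside the class II genes were Gpn2, Apopt1, Sccpdh, Cacybp, Mon1a, Cmtm8, Loh12cr1 and Gm8909, with r of 0.998 to 0.994. In all, 842 genes (6.54%) had r over 0.95. The deviations of H2-Ab1 followed the 5′ GC slope of the libraries (r = 0.92), so these r values include that shared axis. Regulation shared with H2-Ab1 was not tested. Among class II genes H2-Eb1 had r of 0.97, H2-Ob 0.45, H2-DMb2 0.19 and Ciita 0.06. The r of H2-Aa, its partner chain, was −0.62, and that of Cd74 was −0.76. H2-DMa, H2-DMb1 and H2-Oa had r of −0.70, −0.74 and −0.66.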

How the data were processed

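Libraries were made from jejunum RNA with the SMART-Seq v4 kit (oligo-dT priming, PCR) and a transposase kit, and read as single 75-base reads. The deposited values were raw counts per gene symbol. Per the paper's methods and the submitters' processing notes, the authors aligned reads to mm10 with TopHat2 2.1.0 and made the counts with HTSeq 0.6.1p1, with reads of more than 1 alignment in no gene. The strand setting is not given in the sources used here. No molecular identifiers were used, so floors cover counting error only.

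Here the counts were scaled by TMM in edgeR 4.0.16 (R 4.3.3), kept at 5 or more in at least 1 library (17632 genes), fitted with the group only and compared by the likelihood ratio test. Benjamini-Hochberg adjustment ran over all genes tested. Log2 fold changes are KSR23 over WT. The quasi-likelihood F test, DESeq2 1.42.0, other scalings and filters, covariates and subsets of libraries were alternatives. Scripts were tested on simulated data. Means ± SD are of CPM with TMM-scaled totals. Count ratios had 0.5 added. The paper calls the samples biological replicates. The labels name no animals, and p-values measure the spread between these samples. Positions are GENCODE M21 (mm10). Adgre1 was listed as Emr1, and Trbc2 was not matched.

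The class II genes and all lists were chosen with earlier results of these data known. Named were all class II genes, called genes of the lists, those the text turns on, and the 8 genes most like H2-Ab1. Some genes of the lists entered the counts but are not reported here by name.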

Additional observations from a re-analysis of the deposited data

Results flagged for a closer look

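Each group of 5 libraries was scanned for a library whose gap to the nearest other exceeded 0.71 of the range of the group (Dixon's 95% critical value), over the 10 class II genes and the 19 pairs. Of 58 groups, 4 passed, where chance gives about 2.9. The log2 ratio of H2-Aa to Cd74 was −1.05 in WT replicate 3, apart from the next WT library at −1.51. The log2 ratio of H2-Aa to Ptprc was 4.17 in WT replicate 3, above the next at 3.50, and 3.48 in KSR23 replicate 2, above the next at 2.34. The log2 ratio of H2-Aa to C1qb was 1.08 in WT replicate 2, above the next at 0.91. None of the 20 groups of single class II genes passed.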

How the results depend on the processing

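The 2 class II genes called among all 10 libraries became 1 with a replicate block (H2-Eb1 lost, adjusted p = 0.0712, edgeR; Creb1, Cd274, Tap1 and March8 were lost there too, 0.102, 0.124, 0.143 and 0.211) or with the Y-linked share as a covariate, 0 in replicates 1 to 3 alone by either edgeR test, 5 with the 5′ GC slope by either test, and 5 with a replicate block and that slope. Called pathway genes, 13 in all, became 8 with the replicate block, 4 and 0 in replicates 1 to 3 (likelihood ratio and quasi-likelihood), 22 and 21 with the GC slope (likelihood ratio and quasi-likelihood), and 26 with block and slope. The share of all genes called moved with them, from 18.5% to 12.5% with the block, 36.4% and 32.5% with the slope, and 39.7% with both. Leaving out 1 library gave 1 to 4 class II genes (1 without WT replicate 2 or 4, 4 without KSR23 replicate 3) and 8 to 12 pathway genes. The share of all genes called in those fits ran from 13.5% without WT replicate 5 to 21.6% without KSR23 replicate 3. It was 17.2% without WT replicate 2 and 14.2% without WT replicate 4. H2-Aa was called in each setting run except replicates 1 to 3. The same numbers do not pair the libraries (r of same-numbered deviations −0.736, 0.388, −0.676, 0.321 and 0.512), and 0 pairs of ratios could pass a sign-flip test of the pairing, whose smallest p is 0.0625; 3 libraries against 3 cannot go below 0.1. Levels of H2-Aa per length moved from 62.1 to 209 with the longest transcript. By Spearman's rho, 1 of the 8 genes most like H2-Ab1 was again in the first 8. Upper-quartile scaling moved the median of all genes to −0.13, and the higher share of calls from 52.6% to 39.0% (library totals 43.2%, Y-linked share 42.7%).

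Signs turned for H2-Ob (−0.0295 with upper-quartile scaling, −0.35 in replicates 1 to 3 by both tests), H2-DMb2 (0.27 with the Y-linked share, 0.31 without the 4 libraries of lowest GC slope) and Ciita (0.12 and 0.0183 in those 2 settings). With 1 library left out, log2 fold changes ran from −0.0666 to 0.33 for H2-Ob and from −0.31 to 0.0187 for Ciita. Log2 ratio differences ran from −0.50 to 0.71 for Cd74 to H2-Ab1 and for H2-DMa to H2-Ab1, from −0.64 to 0.26 for H2-Ab1 to Epcam, from −1.14 to 0.13 for H2-Ab1 to Ptprc and from −0.31 to 0.0455 for H2-Oa to H2-DMa. The cause was not tested. Depth limits H2-Oa, H2-Ob and H2-DMb2, which had at most 132 counts in a library.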
